A study of Mus musculus with 25 samples.

Results

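The cytoplasmic ribosomal protein genes were described as the set of all gene rows whose symbol is Rpl or Rps followed by a number, with Rplp0, Rplp1, Rplp2 and Rpsa added and the Rps6 kinases left out. The rule found 84 of the 23958 genes in the deposited tables: 43 of the large subunit, 31 of the small subunit, 3 of the ribosomal stalk and 7 paralogs. Expression was read by 3′-end mRNA sequencing in 25 samples of 5XFAD mice, a transgenic strain used as a model of Alzheimer's disease. The 14 choroid plexus samples, from the tissue that lines the brain ventricles and makes cerebrospinal fluid, were whole tissue of the lateral, the third and the fourth ventricle, taken after perfusion with PBS from mice given anti-PD-1 (n = 5), IgG control antibody (n = 5) or no treatment (n = 4). The 11 brain samples were CD11b+ myeloid cells of anti-PD-1 treated mice, sorted as CD45high at D14 (n = 2) and D7 (n = 3), or CD45low at D14 (n = 3) and D7 (n = 3). All were 5XFAD, and no untreated or IgG sorted group is analysed here. The submitters describe the CD45low gate as microglia and the CD45high gate as macrophages derived from monocytes. The choroid plexus titles hold a letter, M or F, and end in a number from 6 to 14, and the labels explain neither. The number differs within groups, 14 occurs only with the letter M, and the number was not used in the fits. The labels give no age, and do not state what D7 and D14 are counted from or whether the sorted samples came from separate animals. P-values among them measure the spread between samples, which may be technical.

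Ribosomal proteins assemble with ribosomal RNA into the small and large subunits that translate every messenger RNA. Their own messages are among the most abundant of a cell and share a stretch of pyrimidines at the 5′ end, through which mTORC1 adjusts their translation together.

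Libraries of choroid plexus held 931461 to 1840072 counts and those of sorted cells 343439 to 974777. In the sorted cells the CD45high libraries were shallower, with 343439 to 579818 counts against 546297 to 974777 in CD45low. Each tissue came with a table of counts and a second, scaled table, whose values were whole reads multiplied by a factor per library, so that the reads could be recovered. The choroid plexus label was borne out by its epithelial markers, such as Ttr, which summed to 149922 to 229141 CPM (counts scaled to a common library total). In the sorted cells, on reads, the 10 microglia markers summed to 1119 to 5624 RPM (reads scaled in the same way) in CD45high and 10962.5 to 16188 in CD45low, and the 9 monocyte and macrophage markers to 4106 to 5468 in CD45high and 66.4 to 455 in CD45low. The CD45high libraries also held 20880.2 to 40043.5 RPM of 10 neutrophil markers, against 887 to 10484.5 in CD45low, and the highest of the CD45low values was that of D7 replicate 3. T and NK cell markers summed to 87.7 to 202 RPM in CD45high and 0.922 to 7.06 in CD45low. Of the markers tested between the gates, all 10 microglia markers were called lower in CD45high by edgeR, and all 9 monocyte, all 10 neutrophil and 5 of 5 T and NK cell markers higher. Likewise all 4 choroid plexus epithelium markers tested were lower in CD45high, with sums over the list of 91.8 to 413 RPM in CD45high and 367 to 1837 in CD45low, and both erythroid markers tested were higher, with sums of 96.3 to 191 RPM in CD45high and 26.4 to 143 in CD45low. Their part in the results below was not tested.

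The 2 deposited tables of sorted cells did not hold the same ribosomal protein reads. Summed over the 11 libraries, the genes had 226170 reads in the scaled table and 16554 counts in the count table, a ratio of 13.7. Per library the ratio was 14.1 to 15.4 in CD45high and 11.9 to 14.3 in CD45low, whereas all other genes together had ratios of 1.35 to 1.40 in CD45high and 1.25 to 1.33 in CD45low. Of the 83 genes listed in the count table, 33 were listed at 0 in all 11 libraries, 13 had 1 to 9 counts, 12 had 10 to 99 and 25 had 100 or more. Of all 84 genes, 81 had 100 or more reads in the scaled version. The 32 genes with 0 counts but some reads had 510 to 8403 reads, with a median of 2289. With 7364652 counts in all, a count of 0 would allow 0.407 CPM for counting error alone.

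The gap differed between members. Rpl8, a protein of the peptidyl transferase region, had 8403 reads and 0 counts. The same held for Rplp1 of the stalk, with 7548 reads and 0 counts, and for Rps15, Rps14 and Rps19 of the small subunit, with 6283, 5065 and 2158 reads and 0 counts. Genes with a few counts had ratios of up to 3471 for Rpl10a, 2807 for Rps16 and for Rpl32, 2115 for Rps21 and 1675 for Rpl28. At the other end, the paralog Rpl7l1 had 1008 reads and 991 counts, Rpl41, the shortest ribosomal protein, 6961 reads and 5988 counts, and Rpl39 of the exit tunnel 409 reads and 322 counts. Rpl22 had 3577 reads and 2321 counts, and the paralog Rps27l 342 reads and 131 counts. In the count table, Rpl41 alone made up 36.2% of all ribosomal protein counts and the 3 largest genes 56.2%, whereas in the scaled table the 3 largest genes made up 10.7% of the reads.

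**Figure D1:**
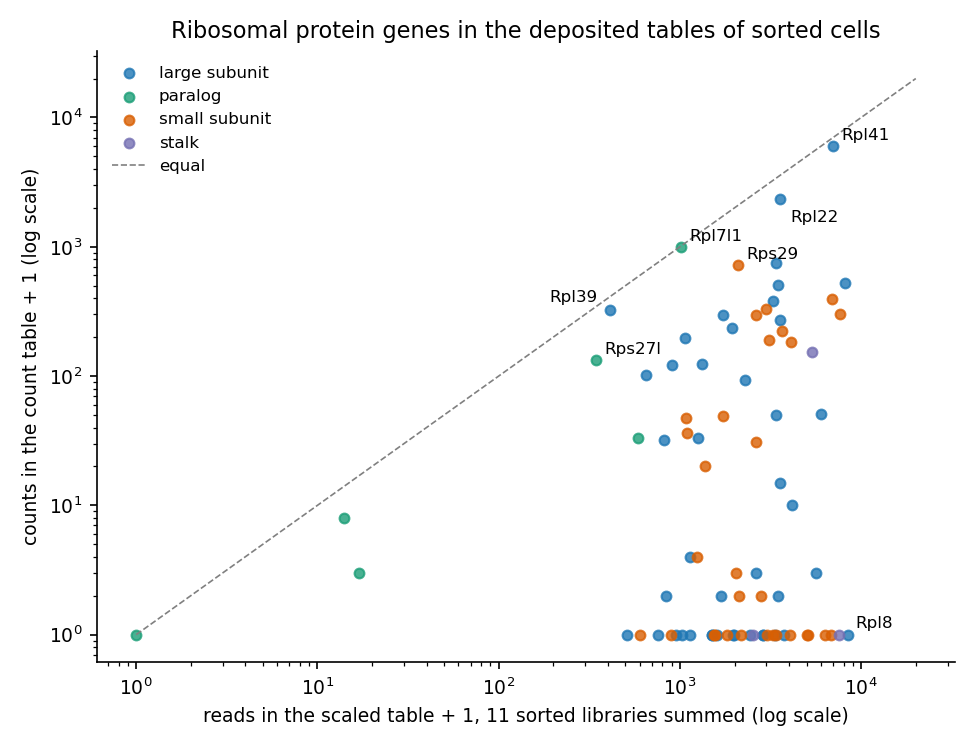
Counts in the count table against reads in the scaled table for each ribosomal protein gene, both summed over the 11 sorted libraries, with 1 added and both axes on a log scale; the dashed line marks equal values. Rpl7l1 and Rpl41 lie near the line, and 33 genes lie on the bottom edge at 0 counts.

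The share of reads held by the count table was set beside the length of the annotated 3′ untranslated region, the stretch of the message after the coding sequence. Its median rose from bin to bin of length in other genes, and did not rise steadily in ribosomal protein genes. Among genes with at least 500 reads in the sorted cells, 77 of 78 ribosomal protein genes and 4883 other genes could be matched by transcript to the GENCODE M21 annotation of GRCm38, a later build than the files' mm9. The median annotated 3′ untranslated region was 87 bases in ribosomal protein genes and 933 in the others. With up to 100 bases, the count table held a median of 0% of the reads of 44 ribosomal protein genes and 4.08% of the reads of 209 other genes. With over 100 and up to 200 bases the medians were 10.5% in 4 ribosomal protein genes and 32.7% in 360 others. With over 200 and up to 400 bases they were 2.11% in 12 ribosomal protein genes and 80.9% in 655 others. With over 400 bases they were 4.49% in 17 ribosomal protein genes and 96.4% in 3659 others, so that most ribosomal protein genes with a long annotated end also had few counts for their reads. Across ribosomal protein genes the share and the length had a Spearman rho of 0.63 (n = 77), and across other genes of 0.39 (n = 4883). Genes of 1 table share their libraries and are not independent. In all, 64 of the 78 ribosomal protein genes and 240 of the other genes, which is 4.89% of them, had under 10% of their reads in the count table.

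**Figure D2:**
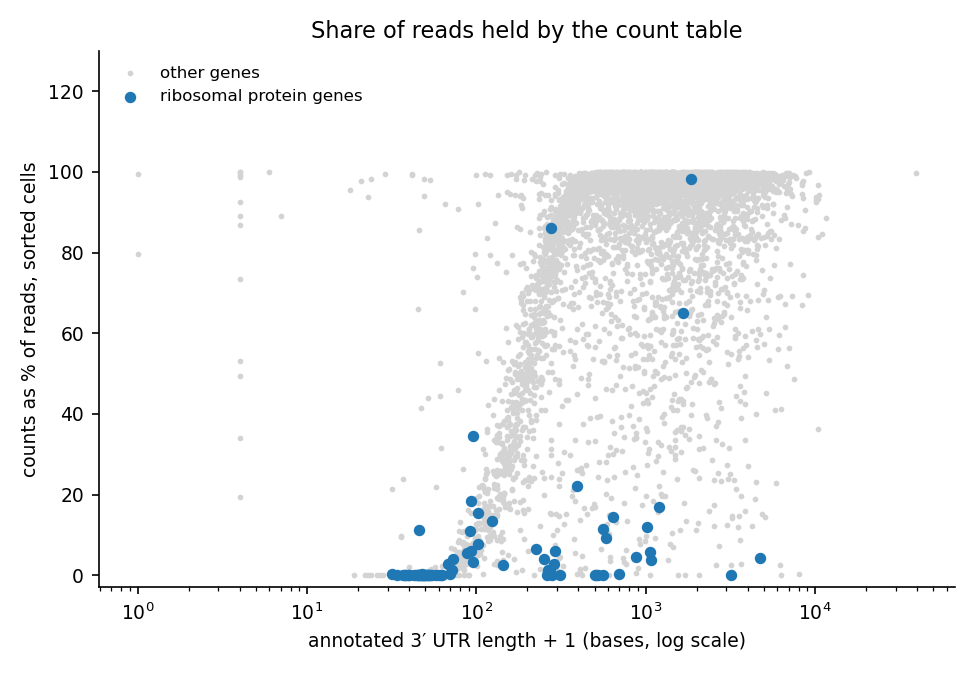
Counts as a percentage of reads in the sorted cells against the annotated 3′ untranslated region plus 1 base (log scale), for genes with at least 500 reads. Most other genes rise from near 0% to near 100% between about 100 and 400 bases. Most ribosomal protein genes lie under 10%, also among those with over 400 bases.

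In the choroid plexus both tables held the same ribosomal protein reads at the transcript given in the count table, with equal sums for all 83 genes listed. The scaled table has 99 rows for these 83 genes, and its rows for other transcripts were not compared. There too 15 genes were listed at 0 in all 14 libraries, 23 had 1 to 9 counts, 12 had 10 to 99 and 33 had 100 or more, and 13 of the zeros were shared with the count table of sorted cells. Among the shared zeros were Rpl8, Rpl11, Rpl18, Rpl35, Rpl36, Rps10, Rps13, Rps14, Rps18, Rps19, Rps3a1 and Rpl10l. Of the 13 only Rpl10l, a paralog known for expression in the testis, was also at 0 reads in the scaled table of sorted cells. Levels in the choroid plexus therefore cover a part of the ribosomal protein genes only. Rpl41 made up 58.3% of their 65167 counts.

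On reads, ribosomal protein genes took a larger share of the CD45high libraries. The share was 3.14% and 3.24% in the CD45high D14 libraries and 3.10% to 3.48% at D7, against 1.58% to 1.82% in CD45low at D14 and 1.77% to 2.40% at D7. All 5 CD45high libraries lay above all 6 CD45low libraries. The CD45low library nearest to the CD45high ones, D7 replicate 3 with 2.40% (95% Wilson interval 2.37% to 2.43%, for counting error only), was also the one with the high neutrophil sum. On counts the shares were smaller, at 0.309% ± 0.0140 (SD, n = 2) in CD45high D14 and 0.305% ± 0.019 (n = 3) in CD45high D7, against 0.177% ± 0.010 (n = 3) in CD45low D14 and 0.202% ± 0.023 (n = 3) in CD45low D7. The choroid plexus libraries held 0.380% ± 0.013 after anti-PD-1 (SD, n = 5), 0.377% ± 0.021 after IgG (n = 5) and 0.355% ± 0.026 untreated (n = 4), and the 3 groups overlapped. In bulk samples more RNA per cell and more cells of a type cannot be told apart.

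**Figure D3:**
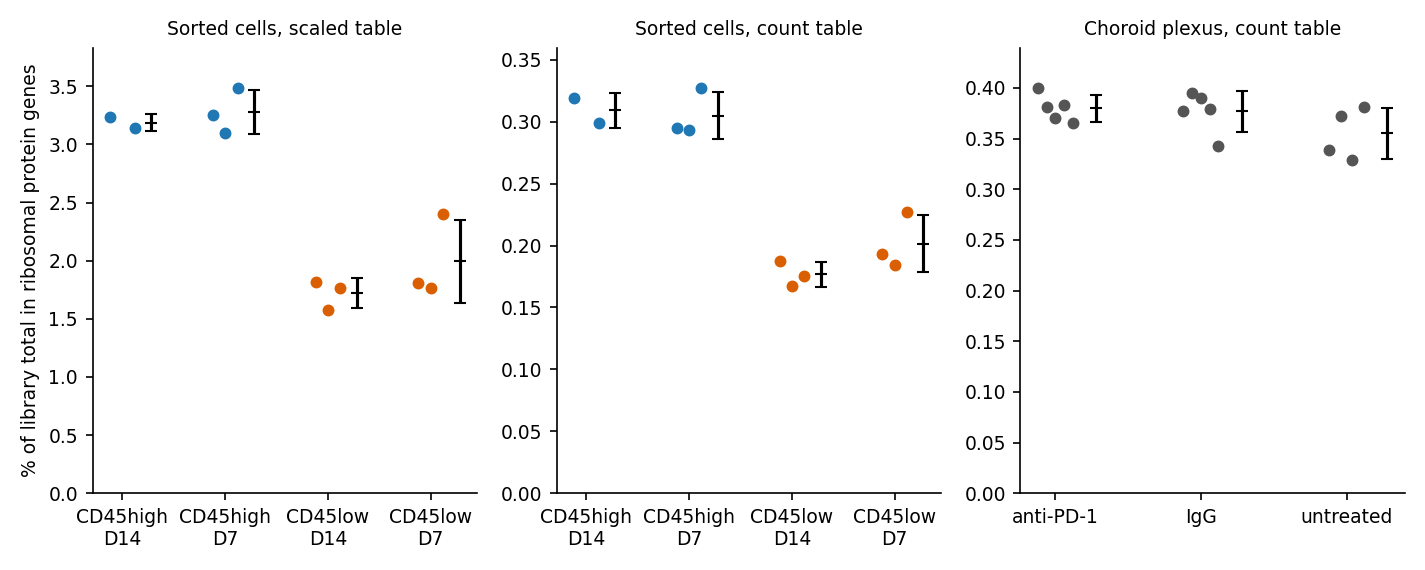
Percentage of each library's total in ribosomal protein genes: sorted cells in the scaled table (left) and in the count table (middle), choroid plexus in the count table (right), each axis starting at 0 and on its own scale. Points are libraries, and bars beside them the mean ± SD; all CD45high libraries lie above all CD45low libraries in both tables.

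Between the gates, nearly every core ribosomal protein message was higher in CD45high than in CD45low cells, most by about 2 times. On reads, 74 of 81 ribosomal protein genes that passed the filter on low values were called higher and 1 was called lower at an adjusted p under 0.05 (edgeR quasi-likelihood test, Benjamini-Hochberg over 10390 genes), when 28% of all genes tested were called higher and 27.7% lower. Their median log2 fold change was 1.11, against -0.08 over all genes. In 65 of the 81 every CD45high library exceeded every CD45low library, as was so for 20.1% of all genes. Set by role, 41 of 43 large subunit genes, 30 of 31 small subunit genes, all 3 stalk genes and none of the 4 paralogs tested were called higher. The median log2 fold change was 1.09 over all 43 large subunit genes, 1.16 over the 31 small subunit genes and 1.08 over the stalk. All large subunit, small subunit and stalk genes had log2 fold changes above 0, as had 2 of the 4 paralogs. The direction held within each time: 69 ribosomal protein genes were called higher and 1 lower at D7, and 72 higher and 0 lower at D14. Of all 10390 genes, 2454 were called higher and 2189 lower at D7, and 2292 and 1689 at D14. Scaled by library totals alone, which moved the median of all genes to -0.39, 70 ribosomal protein genes were called higher and 2 lower. The median of the ribosomal protein genes was then 0.81, and 2260 of all 10390 genes were called higher and 4212 lower.

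The stalk, which recruits the translation factors to the ribosome, rose as a whole. Rplp0 had 814 and 864 RPM in CD45high D14 libraries and 1029, 864 and 1014 in CD45high D7 libraries, against 360, 308 and 410 in CD45low D14 and 333, 341 and 534 in CD45low D7. The groups did not overlap, and the log2 fold change was 1.25 ± 0.15 (SE, edgeR adjusted p = 1.04e-06). Rplp2 changed by 1.08 ± 0.14 and Rplp1 by 0.84 ± 0.14 on the same scale. Rplp1 had 892 to 1374 RPM in CD45high libraries against 473 to 834 in CD45low.

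Among small subunit genes, Rpsa, whose protein is also known as the laminin receptor, changed most. It had 689 and 759 RPM in CD45high D14 libraries and 875, 818 and 787 at D7, against 240, 219 and 261 in CD45low D14 and 220, 257 and 346 at D7. The lowest CD45high library was thus well above the highest CD45low one, with a log2 fold change of 1.60 ± 0.14 (SE, edgeR adjusted p = 1.59e-08). Rps19 and Rps14, whose loss impairs red cell formation in humans, rose by 1.44 ± 0.13 and 1.26 ± 0.13 on the log2 scale, and Rps16 by 1.36 ± 0.14. Rps3, at the entry of the messenger RNA channel, rose by 0.99 ± 0.14, and Rps6, the substrate of the S6 kinases, by 1.16 ± 0.17. Rps27a, made as a fusion with ubiquitin, rose by 1.15 ± 0.15 and Rps25 by 1.17 ± 0.16. Rps4x rose by 1.26 ± 0.29, and was at 0.93 at D7 alone (edgeR adjusted p = 0.060).

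Large subunit genes had log2 fold changes from 0.37 to 1.47, and Rpl28 was the highest. Rpl28 had 302 and 299 RPM in CD45high D14 libraries and 271, 254 and 368 at D7, against 98.7, 97.6 and 123 in CD45low D14 and 102, 101 and 129 at D7, without overlap (log2 fold change 1.47 ± 0.15 SE, edgeR adjusted p = 8.95e-08). Rpl38, known in the mouse embryo for its part in the translation of Hox messages, rose by 1.45 ± 0.21, Rpl41 by 1.30 ± 0.14 and Rpl8 by 1.29 ± 0.14. Rpl5 and Rpl11, which carry the 5S ribosomal RNA and bind Mdm2, rose by 0.89 ± 0.15 and 1.09 ± 0.13. Rpl13a, Rpl22 and Rpl3 rose by 0.82 ± 0.14, 0.82 ± 0.14 and 0.72 ± 0.16, and Rpl23 by 0.96 ± 0.17. The smallest change among core genes was that of Rpl10, which joins the large subunit late in its assembly. It had 441 and 351 RPM in CD45high D14 libraries and 340 to 457 at D7, against 233 to 346 in CD45low D14 and 276 to 387 at D7. These groups overlapped, the log2 fold change was 0.37 ± 0.15 (edgeR adjusted p = 0.044), and scaling by library totals gave 0.06. The call held without CD45high D7 replicate 1, CD45high D14 replicate 2, CD45low D7 replicate 3 or CD45low D14 replicate 3, and was lost without each of the other 7 libraries (adjusted p from 0.063 to 0.26). Rpl39 rose by 0.80 ± 0.32 (edgeR adjusted p = 0.041). That call held without CD45high D14 replicate 2, CD45low D14 replicate 1 or CD45low D7 replicate 1, and was lost without each of the other 8 libraries (adjusted p from 0.052 to 0.31) and by DESeq2 (adjusted p = 0.065).

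The highest mean levels in CD45high were those of Rpl8, with 1460 ± 123.5 RPM (SD, n = 5), Rps9 with 1344 ± 307 and Rpl4 with 1279 ± 114. In CD45low the same 3 genes had 593 ± 128 (Rpl8), 552 ± 153 (Rps9) and 624 ± 109.7 (Rpl4; SD, n = 6). The lowest means in CD45high, beside Rpl3l, Rpl39l and Rpl10l, were those of Rps4l with 27.1 RPM, Rpl22l1 with 38.0, Rps27l with 40.3 and Rpl39 with 56.0. These are reads at the 3′ end of each message, not divided by length.

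**Figure D4:**
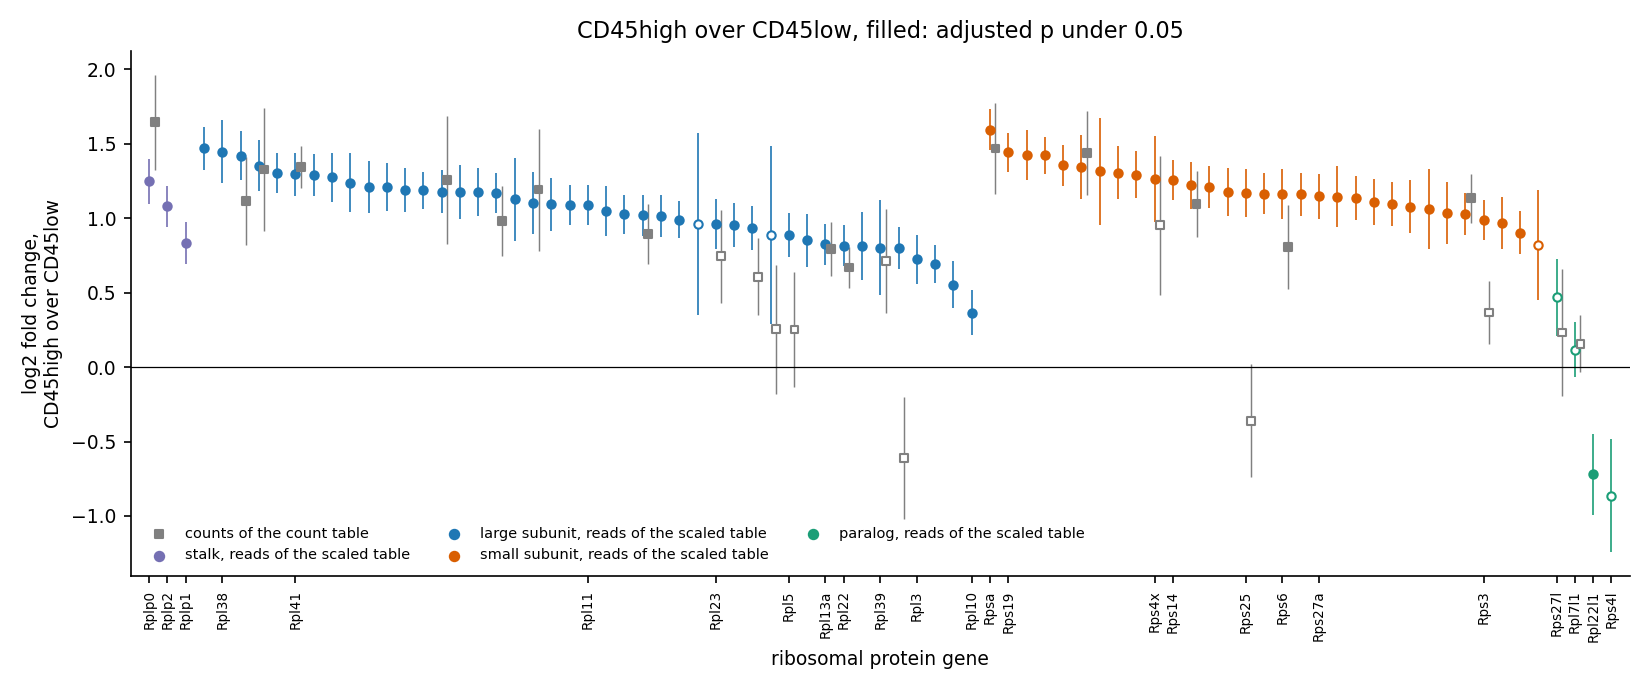
Log2 fold change of CD45high over CD45low with its SE for each of 81 ribosomal protein genes, from reads of the scaled table (circles, by role) and from the count table (grey squares, where tested). Genes named by role and paralogs are labelled. Filled marks have an adjusted p under 0.05; the stalk and both subunits lie above 0 on reads, and the 4 paralogs at the right lie between -0.86 and 0.47.

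Of the paralogs, diverged copies of ribosomal protein genes, 4 could be tested, and none was called higher in CD45high. Their difference from the core genes was not tested. Rpl22l1, the paralog of Rpl22, had 41.0 and 58.7 RPM in CD45high D14 libraries and 36.7, 10.5 and 43.0 at D7, against 82.1, 59.1 and 55.0 in CD45low D14 and 82.2, 48.1 and 60.0 at D7. It was lower in CD45high, by a log2 fold change of -0.72 ± 0.27 (SE, edgeR adjusted p = 0.030), while its parent rose by 0.82. The ranges overlapped, and the call was lost without CD45high D14 replicate 1, CD45high D7 replicate 2, CD45low D14 replicate 1 or CD45low D7 replicate 1 (adjusted p from 0.056 to 0.10). At D14 alone the value was -0.39. The difference between the changes of paralog and parent was not tested. Rpl7l1 had a log2 fold change of 0.12 ± 0.19 (adjusted p = 0.62), Rps27l of 0.47 ± 0.26 (adjusted p = 0.13) and Rps4l of -0.86 ± 0.38 (adjusted p = 0.060), all by edgeR's test. Rpl3l, which is known from striated muscle, had 16 reads in all, Rpl39l 13 and Rpl10l 0, so these 3 were not tested.

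The count table showed a smaller part of the same picture. It left 26 genes to test, of which 15 were called higher in CD45high and 0 lower, when 26.8% of all 9058 genes were called higher and 26.4% lower (edgeR). Their median log2 fold change was 0.85, against -0.08 over all genes, and in 12 of the 26 every CD45high library exceeded every CD45low library, as in 18.9% of all genes. The smallest p-values were those of Rpl41, with a log2 fold change of 1.34 ± 0.14, Rps29 with 1.13 ± 0.16, Rplp0 with 1.65 ± 0.32, Rps24 with 1.44 ± 0.28 and Rps9 with 1.09 ± 0.22. All 15 were also called on reads, and 8 more of the 26 only there: Rpl5, Rpl15, Rpl23, Rpl27a, Rpl39, Rps3, Rps4x and Rps25. The sign was the same in 24 of the 26 genes. The exceptions were Rpl15, at -0.61 ± 0.41 on counts and 0.80 ± 0.14 on reads, and Rps25, at -0.36 ± 0.38 on counts and 1.17 ± 0.16 on reads, and neither was called on counts. Rps25 had 4 to 14 counts in CD45high libraries and 8 to 34 in CD45low libraries.

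Some ribosomal protein genes were set apart in single libraries. Rpl21 had 66.1 and 45.2 RPM in CD45high D14 libraries and 41.6, 37.8 and 438 at D7, against 27.7, 15.7 and 20.5 in CD45low D14 and 41.1, 36.5 and 316 at D7. In each gate replicate 3 of D7 stood apart, and both of these libraries have the number 13 at the start of their titles. Rpl29 did the same, with 504 RPM in that CD45high library and 45.2 to 73.6 in the 4 others, against 335 in that CD45low library and 19.2 to 37.9 in the 5 others. Of 7786 genes with a mean of at least 20 reads, 3 exceeded 2 times every other library of the gate in both libraries numbered 13: Rpl21, Rpl29 and Dusp7. None did so for the numbers 11, 12, 5 or 6. Neither Rpl21 nor Rpl29 was called between the gates, with log2 fold changes of 0.96 ± 0.61 and 0.89 ± 0.60 (edgeR adjusted p = 0.19 and 0.22). Rps2 was also highest in the number 13 libraries, at 199 RPM in CD45high and 135 in CD45low, and was not called either (0.82 ± 0.37, adjusted p = 0.067). All 3 genes were higher in CD45high than in CD45low for each of the 5 numbers that both gates share.

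A library of the CD45low gate at D14 was low in other members. In replicate 3, Rps4x, the copy of the small subunit gene on the X chromosome, had 48.0 RPM, against 279 to 394 in the 5 other CD45low libraries. Rps15a had 12.0 against 55.1 to 131, and Rpl39 7.06 against 25.6 to 63.6. Of the 7786 genes with a mean of at least 20 reads, 81 of them ribosomal protein genes, 73 were under 0.5 times every other CD45low library there. These 3 were the ribosomal protein genes among the 73. In the 5 other CD45low libraries 23 to 105 genes were so low, the 105 in D7 replicate 3, with 0 ribosomal protein genes among them. Without CD45low D14 replicate 3, Rps4x was at 1.02 between the gates, and 73 ribosomal protein genes were still called higher in CD45high and 1 lower. The annotation names pseudogenes for 61 of the 84 genes, with 15 named for Rpl21, 11 for Rps2, 8 for Rps15a, 3 for Rpl29 and 1 each for Rps4x and Rpl39. The largest numbers were 24 for Rpl31 and 23 for Rps12, which were not among the genes set apart. Only pseudogenes named after their parent gene were counted, and the share of all genes with such names was not taken. Reads of genes with such copies may be split among near-identical copies and their levels are uncertain. Whether this bears on the genes set apart was not tested.

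**Figure D5:**
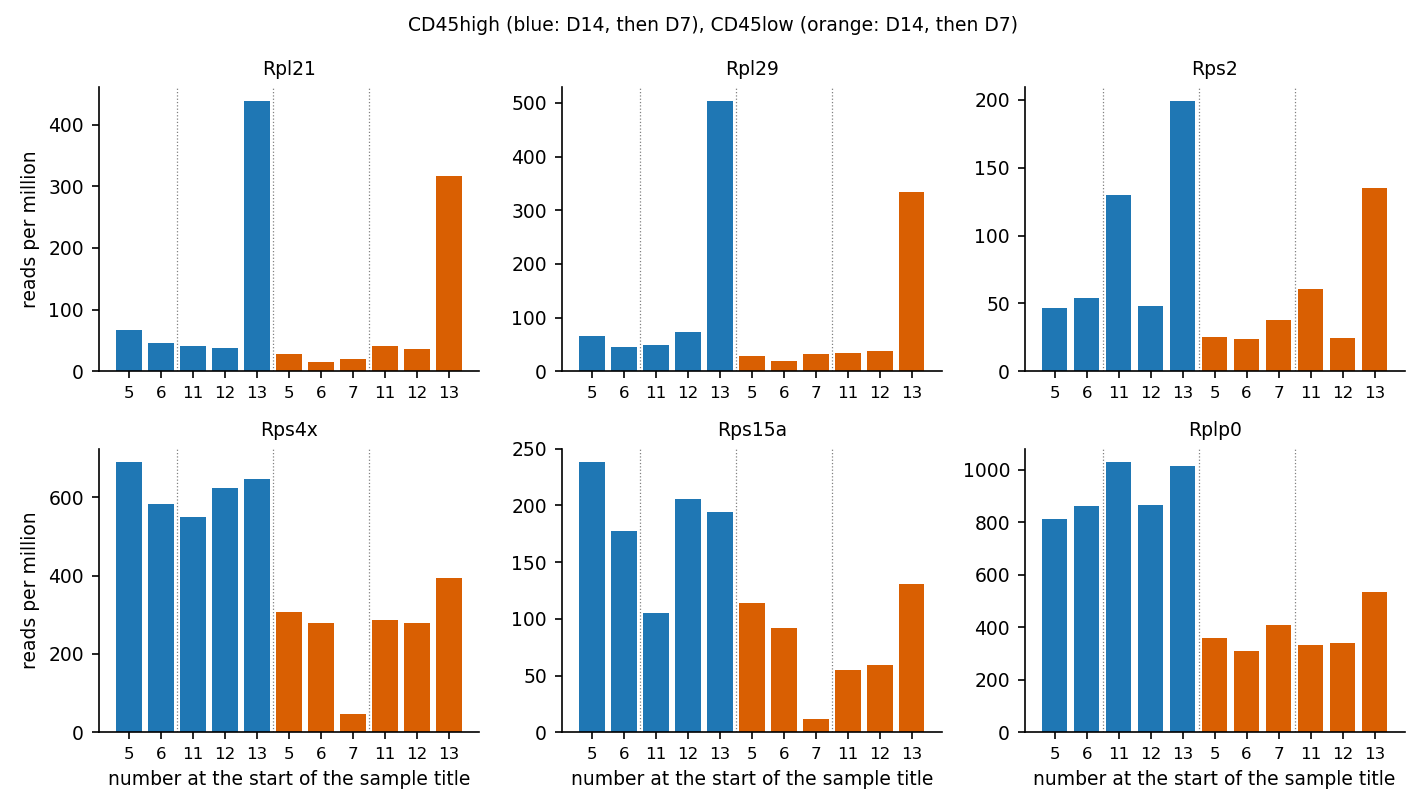
RPM in the scaled table of sorted cells for 6 ribosomal protein genes, a bar for each library, labelled with the number at the start of its title. Rpl21 and Rpl29 are high in both libraries numbered 13, Rps4x and Rps15a are low in the CD45low library numbered 7, and Rplp0 shows the pattern of most members.

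The start sites of the genes were searched for the pyrimidine tract known from their messages. RefSeq gave promoters on GRCm38.p6 for 63 of the 84 genes, matched by symbol. A run of at least 10 C or T bases, read on the strand of the gene and counted only inside the 30 bases either side of the start, was found in 26 of them, or 41.3%, and in 12.5% of 26962 other genes. On the opposite strand such a run was found in 1 ribosomal protein gene, or 1.59%, and in 13.9% of the other genes. Of the genes also tested between the gates, the 26 with the run had a median log2 fold change of 1.11 and the 34 without it of 1.10. The windows below run from 50 bases before the start to 30 after it, 5′ to 3′ on the strand of the gene, with a run of at least 10 in capitals. They show genes of the stalk, the large and the small subunit that were called higher in CD45high, and Rpl22l1 and Rpl7l1 as paralogs that were not called higher. Rpl22l1 holds such a run and Rpl7l1 does not.
Rplp2 (chr7:141447601-141447680, plus strand): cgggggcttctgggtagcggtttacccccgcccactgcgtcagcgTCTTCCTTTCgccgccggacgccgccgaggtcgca
Rpl28 (chr7:4792915-4792994, plus strand): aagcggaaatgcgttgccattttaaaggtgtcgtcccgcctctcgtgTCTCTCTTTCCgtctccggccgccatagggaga
Rpl38 (chr11:114668530-114668609, plus strand): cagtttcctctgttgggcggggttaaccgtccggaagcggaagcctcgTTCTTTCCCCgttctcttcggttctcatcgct
Rps10 (chr17:27635215-27635294, minus strand): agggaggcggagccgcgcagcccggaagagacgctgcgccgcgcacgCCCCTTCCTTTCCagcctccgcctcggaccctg
Rps18 (chr17:33955636-33955715, minus strand): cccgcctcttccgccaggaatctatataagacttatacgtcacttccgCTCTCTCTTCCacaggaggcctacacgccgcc
Rpl22l1 (chr3:28805458-28805537, plus strand): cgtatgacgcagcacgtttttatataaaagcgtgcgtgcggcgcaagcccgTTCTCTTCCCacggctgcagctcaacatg
Rpl7l1 (chr17:46782627-46782706, minus strand): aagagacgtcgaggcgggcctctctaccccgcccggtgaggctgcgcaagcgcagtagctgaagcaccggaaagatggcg

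Genes outside the symbol rule that encode ribosomal proteins were called higher as well. On reads, Fau and Gnb2l1 of the small subunit had log2 fold changes of 1.23 ± 0.14 and 1.09 ± 0.13, and Rpl36al of the large subunit of 1.18 ± 0.15, all called higher in CD45high by edgeR. Of all genes in this fit 28% were called higher and 27.7% lower. Of 9 other messages known for a 5′ pyrimidine tract, 7 were called higher and 1 lower, with a median log2 fold change of 0.88. Vim, an intermediate filament gene, rose by 4.64 ± 0.31, Nap1l1, a histone chaperone, by 1.37 ± 0.16 and Pabpc1, the poly(A) binding protein, by 0.89 ± 0.13. Hnrnpa1, an RNA binding protein gene, was called lower on reads, at -1.10 ± 0.22, and higher on counts, at 0.69 ± 0.26. Of 9 elongation factor genes 5 were called higher and 1 lower, with Eif5a at 1.20 ± 0.13 and Eef2 at 0.91 ± 0.13. The gene called lower was Eef2k, at -2.52 ± 0.20, which encodes the kinase that inhibits Eef2. Of 32 initiation factor genes 11 were called higher and 0 lower, with a median of 0.18. The share called higher was near that of all genes, and the share called lower was below it. With library totals they were 8 and 6, with a median of -0.13. In that fit 2260 of all 10390 genes were called higher and 4212 lower, with a median of -0.39. Among the initiation factor genes were Eif4ebp1, an inhibitor of cap-dependent initiation, at 1.97 ± 0.16, and the eIF3 subunits Eif3h and Eif3f at 1.40 ± 0.13 and 1.23 ± 0.17.

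Of 55 ribosome biogenesis genes 3 were called higher in CD45high and 20 lower, with a median log2 fold change of -0.47, against 1.11 for the ribosomal protein genes and -0.08 for all genes. Nop2, a methyltransferase of large subunit RNA, was at -1.45 ± 0.27 and Gnl3, a nucleolar GTPase, at -1.40 ± 0.27, whereas Bysl, a small subunit assembly factor, was at 2.57 ± 0.14. Of all genes in the same fit 28% were called higher and 27.7% lower, and whether the list differs from them was not tested. At D7 alone 2 were called higher and 20 lower, when 2454 and 2189 of all 10390 genes were, and at D14 alone 4 and 4, when 2292 and 1689 were. With library totals in place of TMM scaling 2 were called higher and 32 lower, when 2260 and 4212 of all genes were. The MYC network had 4 genes higher and 2 lower of 8 tested: Mxd1, an antagonist of Myc, was at 4.63 ± 0.29, Max at 1.60 ± 0.13 and Myc itself at -2.23 ± 0.19. Of 15 mTORC1 and S6 kinase genes 2 were called higher and 6 lower, with Rptor at -2.35 ± 0.25, Tsc2 at -0.85 ± 0.15 and Mlst8 at 1.85 ± 0.33. The ribosome of mitochondria, with its own set of proteins, had 15 genes higher and 9 lower of 75 tested and a median of 0.07, so the shares were below those of all genes, and with library totals 9 and 19. Mrpl33 rose by 2.89 ± 0.18, Mrps21 by 1.40 ± 0.17 and Mrpl30 by 1.29 ± 0.19.

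Between D14 and D7 no ribosomal protein gene was called in either gate or table. In CD45low the median log2 fold change of D14 over D7 was -0.24 on reads for 81 genes, of which 9 were above 0, and -0.26 on counts for 26 genes, against -0.01 and -0.02 over all genes. Without CD45low D7 replicate 3, the library with the high neutrophil sum, the median on reads was -0.055, with 31 of 81 genes above 0 and 1 gene at an unadjusted p under 0.05. On counts the median without it was -0.19, with 1 such gene. On reads 0.0192% of all genes were called higher and 0.00962% lower in CD45low by edgeR, and on counts 0.0221% and 0.0773%. At an unadjusted p under 0.05 by edgeR there were 14 of 81 ribosomal protein genes on reads and 2 of 26 on counts. DESeq2 called 0 in both tables. Of all genes tested, 844 of 10390 on reads and 665 of 9058 on counts had such a p. On reads there were 8 ribosomal protein genes without CD45low D14 replicate 2 and 5 without CD45low D14 replicate 3. The number was 17 without CD45low D7 replicate 1 or CD45low D14 replicate 1, and 20 without CD45low D7 replicate 2. The smallest p-values on reads were those of Rpl21, at -2.57 ± 0.84, Rps18 at -1.08 ± 0.36 and Rpl29 at -2.27 ± 0.80, all by edgeR with adjusted p from 0.36 to 0.42. Without CD45low D7 replicate 3, the library numbered 13, Rpl21 was at -0.88 and Rpl29 at -0.45. Rps18 was also highest in that library, at 262 RPM against 66.3 to 158 in the other CD45low libraries. On counts the smallest p-values were those of Rpl23, at -0.88 ± 0.41, Rpl13a at -0.51 ± 0.24 and Rpl39 at -0.95 ± 0.46.

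In CD45high the median log2 fold change of D14 over D7 was -0.13 on reads and -0.06 on counts. With 4 ribosomal protein genes on reads and 1 on counts at an unadjusted p under 0.05 by edgeR, DESeq2 again called 0. Of all genes tested, 1105 of 10390 on reads and 954 of 9058 on counts had such a p. With library totals the medians were -0.01 on reads and 0.03 on counts, when those of all genes were 0.12 and 0.11. Leaving out single libraries gave medians from -0.14 to -0.08 on reads and from -0.19, without CD45high D14 replicate 1, to -0.01, without CD45high D7 replicate 3, on counts. Of all genes, 0.0289% on reads were called higher and 0.0192% lower, and on counts 0.0110% and 0%. The smallest p-values on reads were those of Rps18, at -1.10 ± 0.40, Rps2 at -1.34 ± 0.56 and Rps9 at -0.55 ± 0.24, and on counts those of Rpl22, at 0.49 ± 0.20, Rps9 at -0.55 ± 0.33 and Rpl7l1 at -0.48 ± 0.29. Rps18 and Rps2 were highest in CD45high D7 replicate 3, the library numbered 13, at 483 and 199 RPM. The other CD45high libraries had at most 347 and 130. The gate difference at D14 minus that at D7 had a median of 0.17 on reads and of 0.17 on counts. On reads the sign turned without CD45low D7 replicate 3, to -0.035 with 32 of 81 genes above 0, and the median was 0.08 without CD45low D14 replicate 2 and 0.27 without CD45low D7 replicate 2. On counts single libraries left out gave 0.08, without CD45low D14 replicate 2, to 0.39, without CD45low D14 replicate 3. By edgeR 0% of all genes were called in either direction in both tables (616 genes on reads and 544 on counts at an unadjusted p under 0.05). At an unadjusted p under 0.05 there were 0 ribosomal protein genes on reads and 1 on counts, and DESeq2 called 0 in each. Rpl5, at 0.56 ± 0.30, and Rpl39, at 0.96 ± 0.64, were among the 3 genes of smallest p on reads. On counts they were Rpl23, at 1.38 ± 0.62, Rpl13a at 0.60 ± 0.36 and Rpl22 at 0.38 ± 0.27.

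In the choroid plexus the values of the groups overlapped. Rpl41 averaged 2223 ± 133 CPM after anti-PD-1 (SD, n = 5), 2173 ± 129 after IgG (n = 5) and 2065 ± 237 untreated (n = 4). Rpl22 averaged 302 ± 30.04 after anti-PD-1, 294 ± 12.9 after IgG and 290 ± 23.4 untreated. Rpl13a averaged 172 ± 23.6 after anti-PD-1, 162 ± 20.6 after IgG and 159 ± 14.2 untreated. Rpl4, of the large subunit, averaged 155 ± 17.9 after anti-PD-1, 159 ± 16.5 after IgG and 175 ± 19.4 untreated, and Rpl5 averaged 142 ± 21.1 after anti-PD-1, 151 ± 23.5 after IgG and 112 ± 18.0 untreated. Rpl39 had 3.51 to 10.2 CPM after anti-PD-1, 2.07 to 7.75 after IgG and 4.04 to 15.0 untreated.

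None of 31 ribosomal protein genes tested was called in any of the 3 comparisons of choroid plexus groups, and none of all 9513 genes was (0% in each direction; edgeR with the letter M or F of the titles as a covariate). At an unadjusted p under 0.05 there were 435, 362 and 475 genes for anti-PD-1 against IgG, anti-PD-1 against untreated and IgG against untreated. DESeq2 called 3, 5 and 6 genes in these, none of them a ribosomal protein gene. No ribosomal protein gene had groups that did not overlap. Of all genes, 0.263% were higher in every anti-PD-1 library than in every IgG library and 0.378% lower, 0.399% were higher in every anti-PD-1 library than in every untreated one and 0.704% lower, and 0.841% were higher in every IgG library than in every untreated one and 0.736% lower. For anti-PD-1 against IgG the median log2 fold change of the ribosomal protein genes was 0.04, with 1 gene at an unadjusted p under 0.05. The genes of smallest p were Rps29, at -0.45 ± 0.17, Rpl36a at 0.44 ± 0.23 and Rpl15 at 0.23 ± 0.15. Rps29 had 60.5, 70.8, 53.9, 49.8 and 49.9 CPM after anti-PD-1, against 97.5, 62.8, 50.5, 103 and 73.6 after IgG, so the groups overlapped. For anti-PD-1 against untreated the median was 0.11, with 3 genes at an unadjusted p under 0.05: Rpl36a at 0.64 ± 0.26, Rpl5 at 0.35 ± 0.15 and Rps29 at -0.42 ± 0.19. The median was 0.04 without anti-PD-1 replicate 5 and 0.05 without untreated replicate 2, and in the second case no gene had such a p. For IgG against untreated the median was 0.04, with 1 such gene, Rpl5 at 0.43 ± 0.15, followed by Rpl19 at -0.46 ± 0.24 and Rpl3 at -0.67 ± 0.41. Single libraries left out moved this median between -0.0042, without IgG replicate 1, and 0.09, without IgG replicate 2. Rpl5 had 138, 177, 170, 147 and 120 CPM after IgG, against 100, 95.7, 119 and 135 untreated, and these groups overlapped as well. The comparisons share groups, so their values are not independent of each other.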

How the data were processed

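Counts per gene were deposited by the authors for choroid plexus and for sorted cells, as whole numbers. The authors also deposited a scaled table for each, whose signal is reads multiplied by a factor per library. Per the submitters' processing notes, Bowtie2, HOMER and mm9 were used, with versions not given in the sources used here. Dividing each library's signal by the value of 1 read gave whole reads for 100% of values within 0.05. In the scaled choroid plexus table, which lists several transcripts of a gene, the transcript of the count table was used.

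Reads and counts were each fitted with edgeR 4.0.16 (R 4.3.3), after filterByExpr and TMM scaling, and the quasi-likelihood test, with p-values adjusted over all genes tested. On reads, 2908 genes were called higher and 2876 lower between the gates, of 10390 tested. Choroid plexus fits used all 14 libraries with the title letter as a covariate, and sorted fits the 4 group means of 11 libraries, so that all groups shared one estimate of the spread. The gate contrast is the mean of the D14 and D7 differences. Fits were tested on simulated data. Levels are CPM of the counts, or RPM of the reads, on the TMM-scaled library total, not divided by length, since each message is read at its 3′ end. DESeq2 1.42.0, other scalings, no filter, left-out libraries, replicate blocks and single times or letters were alternatives. The fits of reads as a result beside the counts, and the alternatives to them, were added after seeing the data. Intervals cover counting error only.

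The members and lists were chosen with earlier results of these data known. Named genes were those fixed by role, the paralogs, and per comparison the 5 called in each direction or the 3 of smallest p, with the extremes of level and of reads over counts. Promoters are RefSeq's (GRCm38.p6), matched by symbol. Protein sequences were not used here. Some genes that the rule names are not reported here.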

Additional observations from a re-analysis of the deposited data

How the results depend on the processing

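For the gate comparison on the count table, the reads of the scaled table gave 74 genes higher and 1 lower in place of 15 and 0. Leaving out single libraries gave 11 to 17 higher and 0 lower on counts, and 71 to 76 higher and 0 to 2 lower on reads. In these fits 2274 to 2474 of all genes were called higher and 2081 to 2418 lower on counts. On reads they were 2665 to 2920 and 2485 to 3098. The 1 gene lower on reads became 2 with library totals without TMM, 2 with no filter and 0 at D14 only. For D14 against D7 on reads, no filter gave 4 lower in CD45low and 4 lower in CD45high in place of 0. Without the filter 48 of all 15903 genes were called higher and 149 lower in CD45low. Leaving out single libraries gave 0 to 1 lower in CD45low; the 1 came without CD45low D7 replicate 2. The cause was not tested. Counts were 0 under all alternatives run in the choroid plexus.

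Rpl7l1 turned to -0.19 with library totals and ranged from -0.060 to 0.23 with single libraries left out, at -0.035 without CD45high D7 replicate 3 and -0.060 without CD45high D14 replicate 1, Rpl19 (IgG against untreated) to 0.42 in F libraries only, and Rps25 on counts to 0.064 at D14 only. On reads Rpl15 was at 0.80 and Rps25 at 1.17. Members' shares in the choroid plexus without the 20 most abundant genes were 0.204% after anti-PD-1, 0.201% after IgG and 0.200% untreated. These 20 included 1 ribosomal protein gene, Rpl41, which held 58.3% of the ribosomal protein counts there. The lower shares thus also reflect its removal. On same replicate or title numbers, the deviations of same-numbered samples mostly correlated under 0.1, and the numbers were not taken to pair the samples. In the choroid plexus, correlations on counts between samples of the same replicate number ran from -0.040 to 0.16. Only that of anti-PD-1 and IgG replicate 3 was over 0.1. For the 5 pairs of sorted samples with the same title number the correlations on reads were all positive, from 0.032 to 0.068, and whether they share an animal is not given. With a replicate block 76 ribosomal protein genes were called higher and 1 lower between the gates on reads, 15 and 0 on counts, and 0 in all other comparisons. Between the gates the block gave 2750 higher and 2586 lower of all 10390 genes on reads, and 2283 and 2120 of 9058 on counts. With the replicate block the median of the gate difference at D14 minus that at D7 was 0.41 on counts and 0.15 on reads. That of anti-PD-1 against untreated was 0.06.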
